A study of Mus musculus with 2 samples.

Results

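Of the chromatin contacts called in hair matrix keratinocytes, a few stood in map regions where almost nothing else was expected. They were the enriched pixels, each a pair of 5 kb bins on 1 chromosome, with a donut expected count under 1.5 and less than 500 kb between the starts of the 2 bins. The donut expected count is the number of contacts predicted for a pixel from the ring of pixels around it. The wild-type (WT) list held 210 such pixels of 5811 (3.61%, 95% interval 3.15 to 4.13), and the double-knockout (DKO) list held 190 of 4872 (3.90%, 3.37 to 4.48). Together they were 322 distinct pixels of 8743. The members were chosen on their expected count, so that count and the enrichment built on it are given as description.

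Hi-C, which joins and sequences DNA fragments that touch inside crosslinked nuclei, was applied to 1.3 M sorted cells a library from mice at postnatal day 4.5. There was 1 library from WT mice and 1 from mice with Tet2 and Tet3 deleted by a Krt14-Cre transgene. The Krt14 promoter is active in basal cells of skin epithelium, and the labels record neither Cre nor targeted alleles for WT. The number of animals per library is not given in the sources used here, and without replicates nothing below has a replicate error or a test.

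A chromatin loop brings 2 distant stretches of DNA together, often where CTCF and cohesin halt the extrusion of a fibre, and it appears in a contact map as a focal pixel above its surroundings. Loop callers compare each pixel with neighbourhoods drawn around it: the donut, the bottom-left corner that points towards the shorter distances between both anchors, and a horizontal and a vertical strip. Hair matrix keratinocytes divide in the follicle's bulb and give rise to the hair shaft and inner root sheath, and TET2 and TET3 oxidise 5-methylcytosine, mostly at CG dinucleotides.

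Because TET enzymes act on CG dinucleotides, the promoter windows at 3 of the member loci are shown with each CG in capitals. Their start sites lay in an anchor bin that both libraries listed. Each window runs from 250 bases before to 50 after a transcription start in RefSeq, build GRCm38.p6. The Psph window is chr5:129787204-129787503 on the minus strand, the Tmem267 window chr13:119487836-119488135 on the plus strand and the Eif2ak1 window chr5:143817542-143817841 on the plus strand.
Psph: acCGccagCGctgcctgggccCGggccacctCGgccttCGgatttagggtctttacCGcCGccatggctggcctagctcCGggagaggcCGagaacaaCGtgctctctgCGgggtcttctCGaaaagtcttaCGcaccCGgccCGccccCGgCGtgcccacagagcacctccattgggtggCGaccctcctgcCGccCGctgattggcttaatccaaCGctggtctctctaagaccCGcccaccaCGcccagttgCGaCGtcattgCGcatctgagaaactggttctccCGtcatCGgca
Tmem267: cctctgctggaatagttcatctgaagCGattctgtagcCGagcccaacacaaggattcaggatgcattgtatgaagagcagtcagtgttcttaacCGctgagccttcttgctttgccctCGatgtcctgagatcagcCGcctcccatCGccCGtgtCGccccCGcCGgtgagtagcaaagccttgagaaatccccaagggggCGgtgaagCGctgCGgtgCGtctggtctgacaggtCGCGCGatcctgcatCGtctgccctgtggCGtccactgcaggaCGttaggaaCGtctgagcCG
Eif2ak1: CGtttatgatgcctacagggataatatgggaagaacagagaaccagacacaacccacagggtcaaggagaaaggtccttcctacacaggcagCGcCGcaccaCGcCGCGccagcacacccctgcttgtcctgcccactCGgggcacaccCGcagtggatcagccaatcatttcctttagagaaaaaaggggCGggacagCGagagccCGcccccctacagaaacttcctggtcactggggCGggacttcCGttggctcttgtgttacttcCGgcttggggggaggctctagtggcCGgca

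The Psph window held 28 CG, which 18.8% of 21262 promoter windows of protein-coding genes reached or passed. The window of Cct6a, which starts in the opposite direction in the same bin, held 30 CG. It lies at chr5:129787106-129787405 and overlaps the Psph window, so the 2 counts share CG. The Tmem267 window shown held 22 CG, reached by 31.3% of windows. A second Tmem267 start in the same anchor bin, with its window at chr13:119488223-119488522, held 50 CG, reached by 1.10%. The Eif2ak1 window held 15, reached by 46.8%. Over the 48 windows with a start inside a member's anchor bin, from 43 genes, the median was 13 CG, the same as over all windows. It was 16.5 over the 14 windows, from 13 genes, at members with a bottom-left expected count of 0. The windows shown are among those 14. The quartiles over all windows were 4 and 24.

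The bottom-left expected count split the members. It was exactly 0 at 110 of 210 members in WT (52.4%, 45.4 to 59.3) and at 119 of 190 in DKO (62.6%, 55.3 to 69.5). Among the other pixels under 500 kb it was 0 at 7 of 5412 in WT and 3 of 4556 in DKO. Of those 10, 9 lay at the Traf5 locus on chromosome 1, where members lay too. Members with a bottom-left count above 0 sat at the low end of the cloud formed by all pixels, with a median bottom-left count of 1.47 in WT and 1.43 in DKO.

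**Figure D1:**
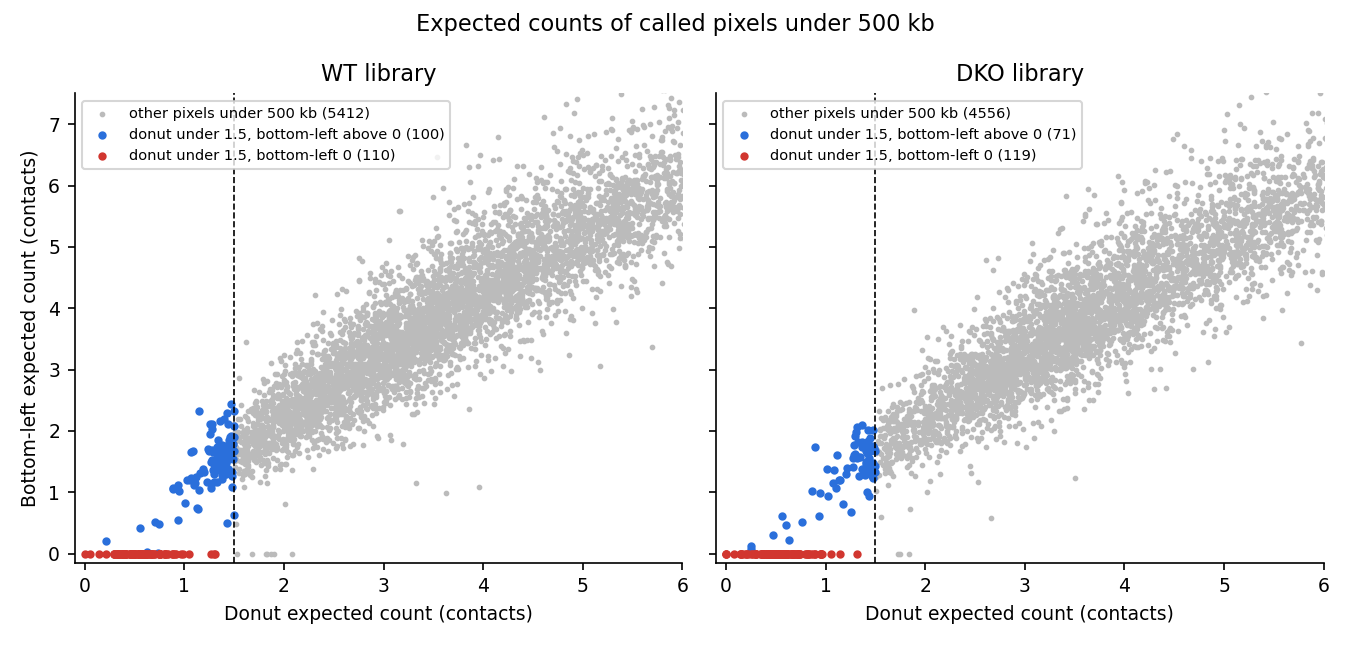
Donut expected count (horizontal axis, contacts) against bottom-left expected count (vertical axis, contacts) for each called pixel under 500 kb, WT left and DKO right. The dashed line is the limit of 1.5, larger values lie outside the plotted range, and the 110 WT and 119 DKO members in red lie along a bottom-left count of 0, apart from the rest.

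The horizontal and vertical counts were low less often than the bottom-left one. In WT, 104 members had a horizontal count under 1.5 (49.5%) and 107 a vertical count under 1.5 (51.0%). In DKO the numbers were 90 (47.4%) and 112 (58.9%). All 4 expected counts were under 1.5 at 62 WT members (29.5%, 23.5 to 36.2) and 66 DKO members (34.7%, 28.0 to 42.0), which no other pixel can reach, since the rule took every low donut. The median of the highest of the 4 counts was 1.76 at DKO members, against 5.05 at the other DKO pixels. The highest single value was 6.21, the horizontal count of a DKO pixel inside D5Ertd579e on chromosome 5, whose donut count was 0.726. In WT it was 5.01, the vertical count of a pixel at Psph with a donut count of 1.31. A low donut count thus did not mean that every neighbourhood was empty.

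The limit of 1.5 fell inside a continuous range. The 3 WT members nearest to it had donut counts of 1.498, 1.496 and 1.496, and the 3 pixels just outside had 1.503, 1.506 and 1.51. In DKO they were 1.497, 1.496 and 1.495 inside and 1.504, 1.508 and 1.509 outside. None of these 12 pixels had a bottom-left count of 0.

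Members with a bottom-left count of 0 were short and those above 0 mostly long. The median span was 65 kb in both libraries for the former, with a maximum of 185 kb, and 275 kb in WT and 240 kb in DKO for the latter. Median donut counts were 0.547 and 0.522 for the former and 1.34 and 1.35 for the latter. Observed counts differed less, with a median of 15 contacts in both libraries against 12.5 in WT and 13 in DKO. Of the members above 0, 83.0% in WT and 80.3% in DKO held 10 to 14 contacts, close to the smallest count listed, which was 10. A false discovery rate under 0.01 in all 4 neighbourhoods was reached by 69.1% of WT and 73.9% of DKO members at 0, and by 38.0% and 42.3% of those above 0.

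Both lists held 88 of the 322 distinct members (27.3%, 22.5 to 32.6), against a background of 22.5% of all distinct pixels under 500 kb. Of the 88, 78 met the limit in both lists and 10 in 1 list, with a higher donut count in the other. From the WT side 83 of 210 members were listed in DKO (39.5%, 32.9 to 46.5; background 33.9%), and from the DKO side 83 of 190 in WT (43.7%, 36.5 to 51.1; background 40.1%). These shares were near the background. Within the members they ran apart: with a bottom-left count of 0, both lists held 68 of the 110 WT members (61.8%, 52.1 to 70.9) and 68 of the 119 DKO members (57.1%, 47.8 to 66.2), and above 0 it was 15 of 100 (15%, 8.65 to 23.5) and 15 of 71 (21.1%, 12.3 to 32.4). Intervals cover counting error only and treat neighbouring pixels as independent, which they are not.

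Neighbouring members were joined where both anchors lay within 20 kb, which gave 171 groups. A bottom-left count of 0 occurred in 37 groups holding 235 of the 400 listed entries. Of these groups 26 had members in both lists (70.3%, 53.0 to 84.1), 4 were found only by WT and 7 only by DKO. The other 134 groups held 165 entries, 120 of them were single pixels, and 15 had members in both lists (11.2%, 6.40 to 17.8). The number of pixels goes with this: all 26 zero-count groups of at least 3 pixels were in both lists, as were 92.8% of 636 groups of at least 3 other pixels joined in the same way. Pixels of a group were pooled over both lists, so its size and its presence in both lists are linked by construction. Those 636 belong to 2651 groups of other pixels with 30 to 155 kb between their anchors, of which 1615 were single pixels. Over all 2651, the share with pixels of both lists was 34.6% (918 groups, 32.8 to 36.5).

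The stretch between the innermost anchor bins had a narrow range of widths in the zero-count groups. Its median was 50 kb and its range 30 to 155 kb, with 10 groups at exactly 50 kb, 20 of 37 (54.1%) at 45 to 55 kb and 4 at 90 to 100 kb. Groups of other pixels with 30 to 155 kb between their anchors numbered 2651, and 14.7% of them were at 45 to 55 kb. Comparisons with these 2651 match the range but not the width within it, and what the width contributes was not tested. No annotated gene end of any kind lay in the stretch in 28 of 37 zero-count groups (75.7%, 58.8 to 88.2), against 12.0% of the 2651 (10.75 to 13.25). In 18 (48.6%, 31.9 to 65.6) a single protein-coding gene covered the whole stretch, against 14.9% (13.6 to 16.4). No anchor of any called pixel lay in it in 36 of 37 groups, the exception being Snrnp40 to Nkain1, against 78.1% (76.5 to 79.7). Counted per pixel at spans of 35 to 130 kb, where anchors of neighbouring pixels in the same group count as lying between, the order was the other way: none lay between at 19.75% of zero-count pixels (13.8 to 26.8) and at 35.25% of other pixels (33.9 to 36.6). Whether the bins of these stretches hold assembled or uniquely mappable sequence was not tested, since the only sequence used here was that of promoter windows.

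**Figure D2:**
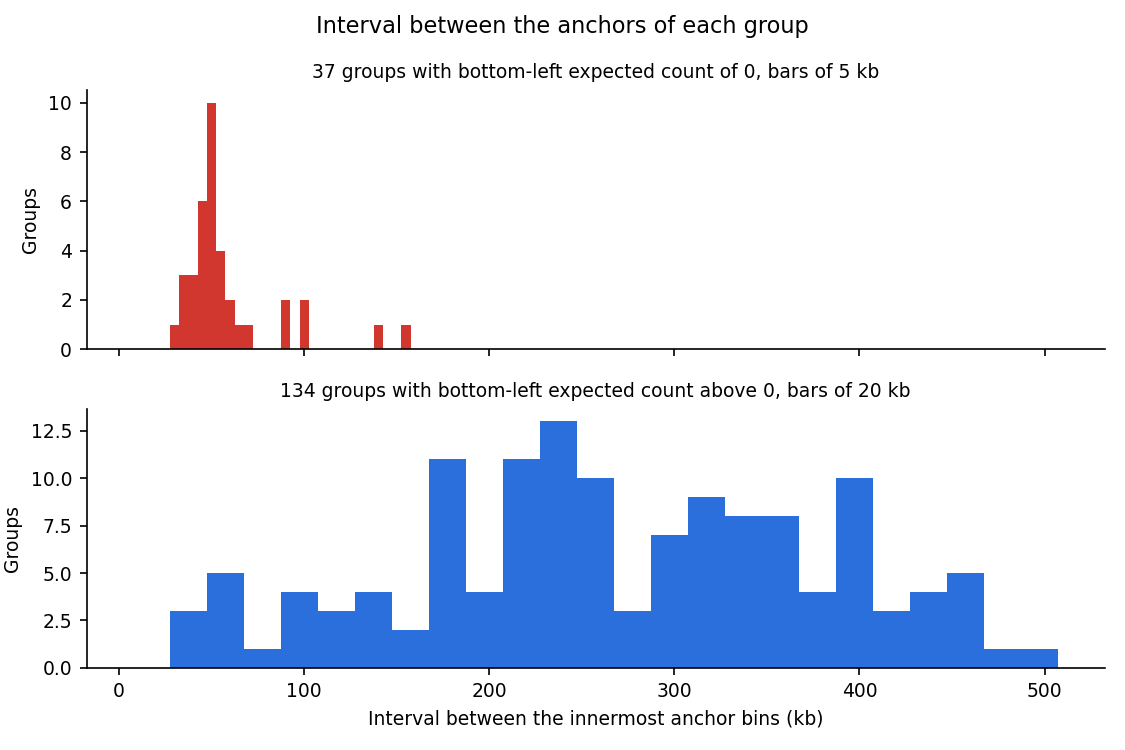
Number of groups (vertical axis) by the interval between their innermost anchor bins (horizontal axis, kb), for groups with a bottom-left count of 0 (top, 5 kb bars) and above 0 (bottom, 20 kb bars). The 37 groups at the top pile up at 50 kb and none passes 155 kb, while the 134 at the bottom have a median of 260 kb.

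The locus with the highest WT count joined Psph and Cct6a to Sumf2 on chromosome 5, between 129780001 to 129795000 and 129845001 to 129865000. Psph encodes phosphoserine phosphatase, which releases serine at the end of its synthesis, Cct6a a subunit of the TRiC chaperonin and Sumf2 a sulfatase-modifying factor. Psph ends at 129765558 and starts at 129787443, and Cct6a runs from 129787356 to 129846443 across the whole 50 kb between the anchors. WT listed 7 pixels and DKO 5, and 4 were in both lists. Their counts were 47 in WT and 42 in DKO, 36 and 40, 17 and 20, and 14 and 18. The bottom-left count was 0 at every one, while the horizontal count reached 4.21 and the vertical count 5.01. At the highest pixel the enrichment was 35.9 in WT and 36.7 in DKO, a DKO/WT ratio of 1.02 (0.657 to 1.58). The ratios at the next 3, in the order of the counts above, were 1.26 (0.781 to 2.03), 1.61 (0.802 to 3.27) and 2.06 (0.968 to 4.47). All 4 were above 1, and each interval included 1.

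Tmem267, which encodes a little-studied membrane protein, held the highest DKO counts. Its contacts joined the bins at its start, 119485001 to 119495000 on chromosome 13, to bins at its far end and towards the chemokine gene Ccl28, 119595001 to 119620000. The gene, from 119488086 to 119610459, covered the 100 kb between. WT listed 5 pixels and DKO 6, with 5 in both lists and 1 anchor bin in common to those 5. From the shortest to the longest span, 110 to 130 kb, WT had 39, 13, 21, 35 and 37 contacts and DKO had 48, 18, 23, 68 and 63. DKO was higher at all 5, by most at the 2 longest. The bottom-left count was 0 at each pixel, and the donut count was lower in DKO at all 5.

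**Figure D3:**
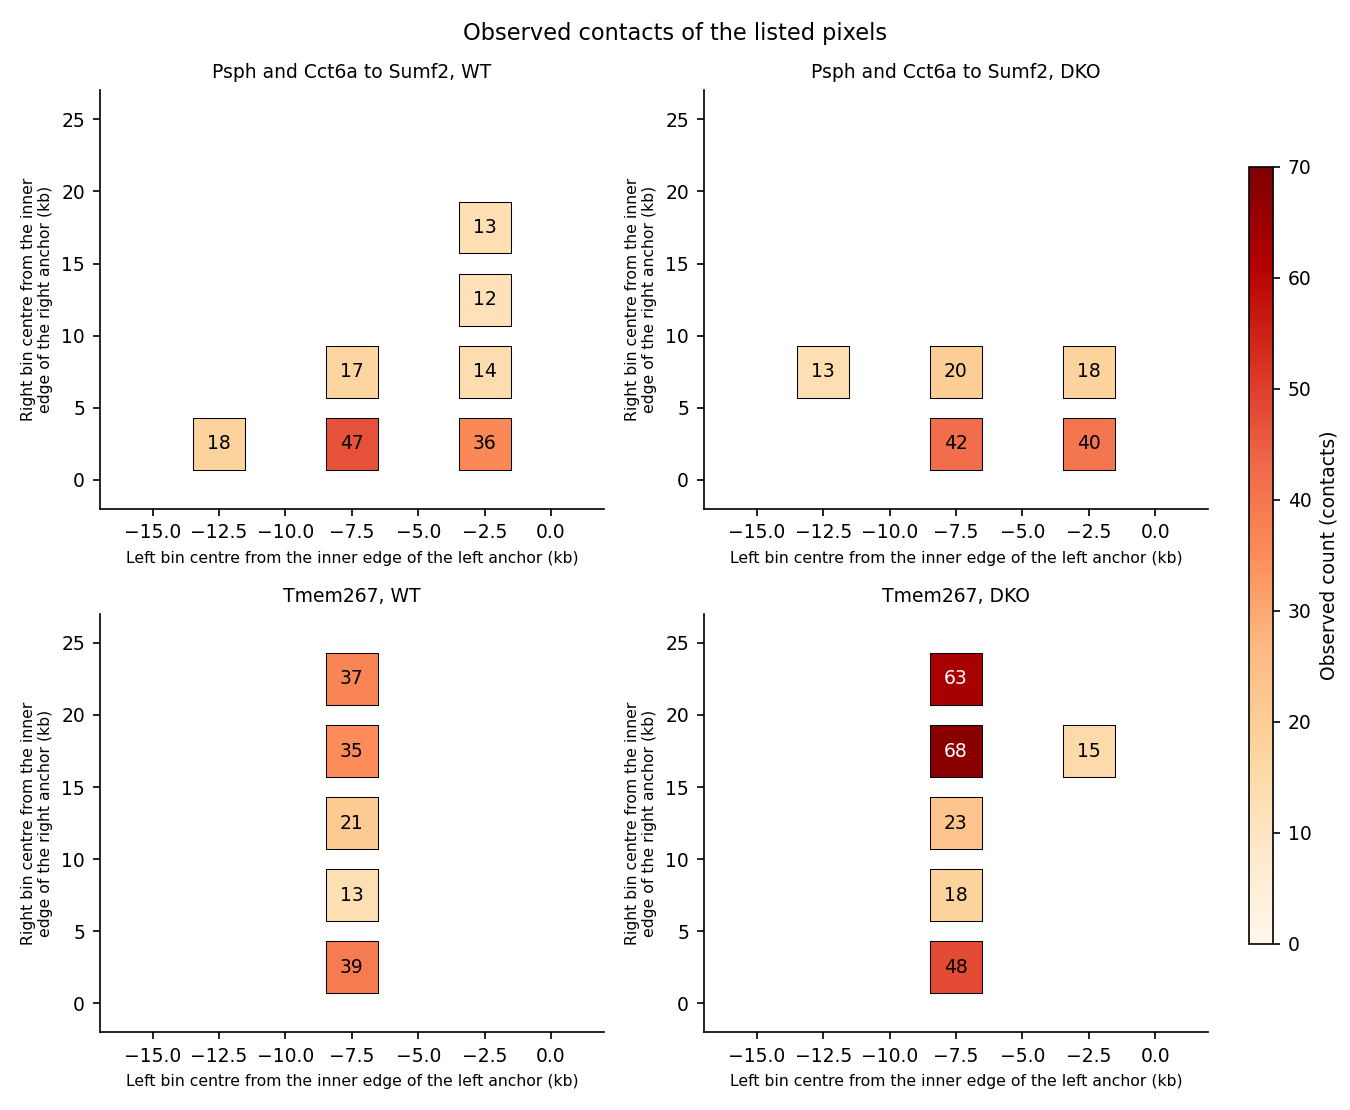
Observed contacts (number and colour) of each listed pixel at Psph and Cct6a to Sumf2 (top) and at Tmem267 (bottom), WT left and DKO right, placed by the distance of the bin centres from the inner edge of each anchor (axes, kb). The Psph counts peak near the inner corner in both libraries, at 47 and 42, and the 5 Tmem267 pixels of 1 left bin hold 39, 13, 21, 35 and 37 contacts in WT and 48, 18, 23, 68 and 63 in DKO.

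The DKO/WT enrichment at the 125 kb Tmem267 pixel was 3.08 (2.02 to 4.78), from 36.0 in WT and 111.0 in DKO. At the 130 kb pixel it was 2.25 (1.48 to 3.48) and at the 115 kb pixel 2.28 (1.06 to 5.06), and both remaining intervals included 1. The ratio of observed counts alone, divided by 0.973, was 2.00 at the 125 kb pixel (1.31 to 3.10). That divisor was the median DKO/WT ratio of donut counts at the 1905 shared pixels under 500 kb, and not a sequencing depth. The highest of the 4 expected counts in place of the donut count gave 1.85 (1.21 to 2.86). With 1 library per genotype these ratios compare 2 libraries. Pixels of 1 locus are not independent, and the genotype and the library cannot be told apart.

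Nkain1, which encodes a protein that interacts with the sodium pump, lay in 2 overlapping groups on chromosome 4. The first joined Snrnp40, a gene of the U5 splicing particle, to Nkain1, with anchors at 130365001 to 130395000 and 130535001 to 130580000. WT listed 6 pixels of 12 to 20 contacts and DKO 3 of 14 to 17, and 2 were in both lists, with 13 in WT and 15 in DKO, and 12 and 17. It was the zero-count group with called anchors between its own, 4 of them, and its bottom-left count was 0 at 5 of 9 entries. The second joined 130515001 to 130530000, at the 3′ side of Nkain1, to 130630001 to 130645000. Its 3 pixels in both lists had 25, 20 and 17 contacts in WT and 30, 19 and 15 in DKO. Its bottom-left counts ran from 0.303 to 0.612, so it was low but not empty, and it held more entries, 7, than any other group without a bottom-left count of 0.

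Many of the remaining shared groups lay inside 1 gene. Intu, a planar polarity gene needed for cilia, had 30 contacts in WT and 29 in DKO at its highest pixel, 105 kb apart on chromosome 3. Maml2, a NOTCH co-activator gene on chromosome 9, had 7 WT and 11 DKO pixels of 12 to 20 and 12 to 25 contacts. Fam163a on chromosome 1 had 5 pixels in each list with maxima of 30 and 23. The DKO/WT enrichment at the shared pixel with the highest WT count was 1.03 at Intu (0.597 to 1.78), 0.861 at Maml2 (0.435 to 1.70) and 0.705 at Fam163a (0.370 to 1.31), and each interval included 1. With the highest of the 4 expected counts in place of the donut count, the ratio at this Fam163a pixel was 0.531 and its interval, 0.279 to 0.984, no longer included 1. The other 2 shared pixels at Fam163a had equal counts in both libraries, 23 at 60 kb and 17 at 65 kb, and donut ratios of 1.10 (0.591 to 2.06) and 1.13 (0.542 to 2.35). At Maml2 the DKO maximum of 25 lay on a pixel with 12 in WT, at a ratio of 1.85 (0.898 to 4.05).

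Eif2ak1, the gene of the heme-regulated kinase of a translation initiation factor, had maxima of 27 in WT and 20 in DKO. Its highest expected count was the largest multiple of the donut count in WT after chromosome Y, 6.08 times at the 60 kb pixel. There the donut count was 0.576 and the horizontal one 3.50. Nhej1, a double-strand break repair gene, had 15 contacts in WT and 22 in DKO at its highest pixel, a ratio of 1.54 (0.763 to 3.19). Drc1, a gene of the ciliary dynein regulatory complex, had 29 and 31, and Sgms2, a sphingomyelin synthase gene, 27 and 26. Muc2, a secreted mucin gene, had 26 and 21. At Traf5, an adaptor gene of the tumour necrosis factor receptor family, the maxima fell on different pixels: WT had 24 and DKO 21 at the 55 kb one, and 13 and 23 at the 50 kb one. Efcab7, a ciliary gene of hedgehog signalling, had 18 in WT and 12 in DKO at 1 shared pixel and 14 in both at the other. Atp6v0a2, a proton pump subunit gene, had 6 WT pixels with up to 23 contacts and 2 DKO pixels with up to 14, but only 1 pixel in both lists, with 13 and 14. All of these had a bottom-left count of 0 at their highest pixels.

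Other shared groups also reached neighbouring genes, or lay near or away from genes. On chromosome 9, 8 WT and 10 DKO pixels had maxima of 21 and 19. They joined Celsr3 and the start of the anion exchanger gene Slc26a6 to the far end of Slc26a6, Tmem89 and Uqcrc1. Slc26a6 covered the 45 kb between the anchors. Near Tlr5, the flagellin receptor gene on chromosome 1, and near Hhipl2 the maxima fell on different pixels in the libraries. At the 50 kb pixel near Tlr5 WT had 24 contacts and DKO 13, and at the 55 kb one WT had 22 and DKO 34. At the 60 kb pixel near Hhipl2 WT had 27 and DKO 16, and at the 55 kb one WT had 19 and DKO 26. Cdkn2b, a cell cycle inhibitor gene on chromosome 4, had 1 WT pixel of 20 contacts and 3 DKO pixels of 14 to 18, and none was the same pixel. In 9 of the 37 groups no protein-coding gene lay at either anchor. The most populated of these, at the long noncoding RNA Gm31775 on chromosome 14, had 8 WT and 5 DKO pixels with maxima of 34 and 33.

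**Figure D4:**
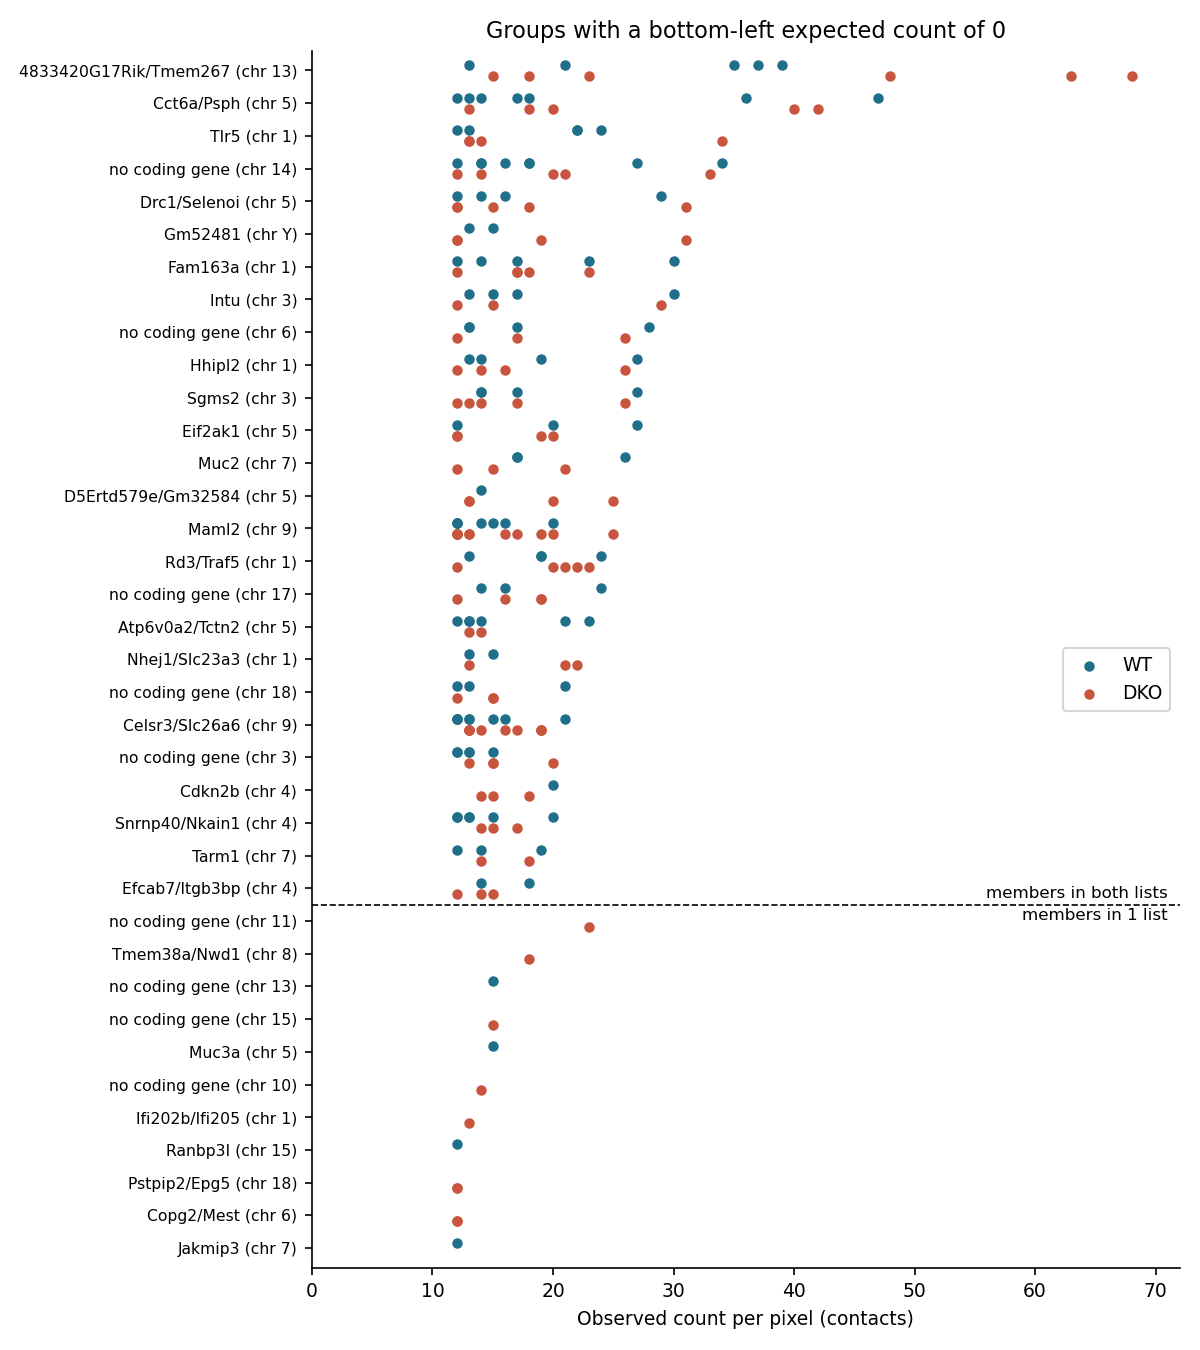
Observed count (horizontal axis, contacts) of each member pixel in the 37 groups with a bottom-left count of 0, 1 row a group with its first genes and chromosome, WT in blue and DKO in red; pixels of equal count overlap. Above the dashed line are the 26 groups with members in both lists, led by Tmem267 with up to 68, and below it the 11 with members in 1 list, none with more than 23.

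Mest and Pstpip2 were in the DKO list alone. Mest, a paternally expressed imprinted gene on chromosome 6, had 2 pixels of 12 contacts each, with its 3′ end, at 30748466, inside the left anchor bin of one and within 5 kb of that of the other. Copg2, the coat protein gene that overlaps it there, covered the 45 kb between the anchors. Their donut counts were 0.408 and 0.287. The start of Mest, at 30733506, was not in an anchor bin. Pstpip2, an F-BAR protein gene active in myeloid cells, was joined to Epg5, an autophagy gene, on chromosome 18 by 2 pixels of 12 contacts, with donut counts of 0.146 and 0.209. All 4 pixels had a bottom-left count of 0, and WT had no pixel within 2 bins of either group. A count of 12 was also the smallest at any member with a bottom-left count of 0.

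The other 9 groups in 1 list were single pixels. In DKO the highest was an intergenic contact on chromosome 11 with 23 contacts on a donut count of 0.1495. The next joined Tmem38a, a cation channel gene, to Nwd1 on chromosome 8 with 18 contacts. In WT the single pixels lay at Muc3a and on chromosome 13 (15 contacts each), and in Ranbp3l and Jakmip3 (12 each). In no case did the other list hold a pixel within 2 bins, and what it held below its calling limit is not recorded.

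Some members lay in families of related genes, where the assignment of reads to a copy can be uncertain and was not tested. Of the multi-copy families listed beforehand, 5 of 400 Zfp genes (1.25%) and 2 of 1110 Olfr genes (0.18%) were at a member. The share over all protein-coding genes was 0.977%, and the other listed families had no gene at a member. The families are thus given as loci and not as a trait of the members. On chromosome 4 the zinc finger genes Zfp978 and Zfp985 were joined in WT by 16 contacts over 250 kb, with all 4 expected counts between 0.145 and 0.335. On chromosome 1 the interferon-inducible genes Ifi203 and Mndal had DKO pixels of 15 and 14 contacts with no expected count above 0.454. The kinase genes Smok2a and Smok2b on chromosome 17 had 2 WT pixels and 1 DKO pixel of 13 to 16 contacts. Every listed pixel of chromosome Y was a member, 2 in WT (15 and 13 contacts) and 4 in DKO (31, 19, 12 and 12), at Gm52481. Most of their donut counts were practically 0, so their enrichment is not given as a level.

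The members' median enrichment did not lean to either library. At the 87 pixels in both lists with donut counts above 0.01, the median DKO/WT ratio was 0.9999 (0.936 to 1.075), against 0.983 (0.971 to 0.997) over all 1905 shared pixels under 500 kb. It was above 1 at 43 and below 1 at 44. A ratio of at least 1.5 was seen at 12 of 87 (background 68 of 1905, 3.57%). A ratio of at most 1/1.5 was seen at 7 of 87 (background 100 of 1905, 5.25%). Both were more frequent than in the background, which included the members. The members' counts had a median of 16 in WT and 17 in DKO. Each ratio divides by the donut counts on which the members were chosen. These shares are therefore description, and what sets them above the background was not tested. Of the 12, 4 were at Tmem267, and 3 of the 4 pixels whose interval lay above 1 were there as well. The fourth was the 55 kb pixel near Tlr5, at 1.90 (1.08 to 3.41). The 1 interval below 1 was on chromosome Y, at 0.166 (0.0691 to 0.394), with a WT donut count of 0.0543.

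**Figure D5:**
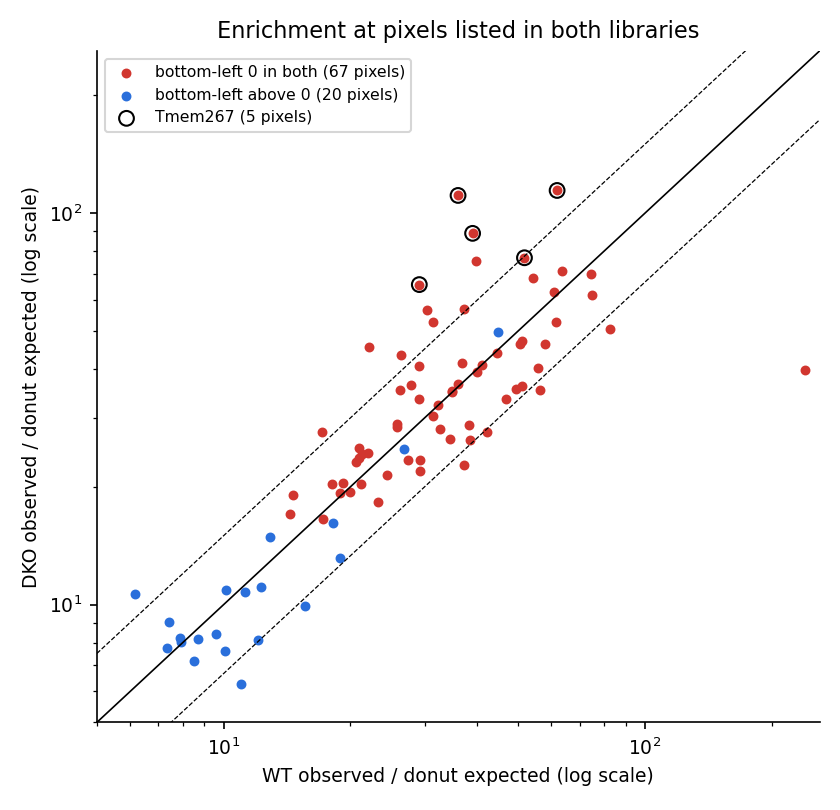
Observed over donut expected count in WT (horizontal, log scale) and DKO (vertical, log scale) for the 87 member pixels in both lists; the solid line marks equality and the dashed lines a ratio of 1.5 either way. Most points lie between the dashed lines, and the 5 circled Tmem267 pixels all lie above equality.

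The gene lists chosen for skin and for DNA methylation were too small for absence from the members to be a result. No member lay at any of 42 keratin genes, 36 hair follicle transcription factor genes, 37 WNT pathway genes, 31 terminal differentiation and desmosome genes, 20 DNA methylation genes, 18 loop architecture genes or 34 marker genes of other skin cell types. In that order, 9, 18, 18, 11, 7, 6 and 11 of these genes were at any pixel under 500 kb. Among 46 imprinted genes, 4 were at a member: Mest, Copg2, Peg3 and Usp29, the last 2 at 1 DKO pixel of 13 contacts over 365 kb with a donut count of 1.497. Over all protein-coding genes the share at a member was 0.977%, 214 of 21896, so lists of this size would hold few or none. The imprinted list was above that share, at 8.70%. Of its genes at any pixel under 500 kb, 18.2% were at a member, against 3.66% for all genes. Mest and Copg2 shared their pixels, as did Peg3 and Usp29. A gene end within 5 kb of an anchor was found at 48.8% of distinct members (43.2 to 54.4) and 68.3% of the other pixels (67.3 to 69.4), and a transcription start inside an anchor bin at 16.5% (12.6 to 21.0) and 22.3% (21.4 to 23.3).

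Members were unevenly spread over chromosomes. Their share of the pixels under 500 kb was 8.55% in WT and 10.05% in DKO on chromosome 3, and 7.65% and 9.69% on chromosome 1. It was 1.26% and 0.741% on chromosome 11. In WT it was lower still on chromosomes 12 (0.493%), 19 (0.575%) and 15 (0.769%). The highest WT shares were on X (10%, 3 of 30 pixels) and Y (100%, 2 of 2). Neighbouring pixels of 1 group are counted separately in these shares. The long members above 0 seldom recurred. Among those that did, Rab3c, a vesicle transport gene on chromosome 13, had 1 anchor of a 305 kb pixel with 23 contacts in WT and 13 in DKO. Afdn, a cell junction gene on chromosome 17, had 1 anchor of a 360 kb pixel with 14 and 15. The interval of the DKO/WT enrichment included 1 at both, at 0.636 (0.296 to 1.31) and 1.15 (0.519 to 2.58).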

How the data were processed

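Hi-C contacts from 1 WT and 1 DKO library were deposited as 2 lists of enriched pixels in 5 kb bins, made with juicer_tools 1.22.01 per the file headers, on GRCm38 (mm10) per the submitters' processing notes. The deposited lists give, per pixel, the observed contact count, 4 expected counts (a signal from the bottom-left, donut, horizontal and vertical neighbourhoods), a score numbering the class of expected counts, and a false discovery rate (q-value) per neighbourhood, the highest being 0.09987. Aligner, read filters and depth: not given in the sources used here. Pixels missing from a list have no value in it, and the smallest listed count was 10.

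Members were the pixels with a donut expected count under 1.5 and a span under 500 kb. Enrichment was observed over donut expected count, for ratios only where both donut counts were above 0.01. Distinct members were joined within 20 kb at both anchors. Counts have exact Poisson intervals, shares Clopper-Pearson intervals and ratios conditional binomial intervals, at 95% and for counting error only. Medians have 95% order-statistic intervals, which reflect the spread over pixels. They treat pixels as independent, which neighbouring pixels are not. Gene positions and promoters came from RefSeq tables of GRCm38.p6. Work was done in Python 3.11.15 with numpy 2.4.6, pandas 2.3.3, scipy 1.17.1 and matplotlib 3.10.9, and the grouping and intervals were tested on simulated data.

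Genes were named where a member overlapped them or lay within 5 kb, at the loci set for the study, at the 10 most enriched and 10 most populated shared members, in groups of at least 3, next to the limit, where neighbourhoods differed most, and in the gene lists. Other loci, such as single-pixel groups, Rab3c, Afdn and gene families, were named after their values were seen. The members and lists were chosen with earlier results of these data known.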

Additional observations from a re-analysis of the deposited data

How the results depend on the processing

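With 1 library per genotype no replicate could be left out. No paired analysis was possible because each group had 1 library and no test was made. Calling limits decide which pixels have a value, and depth limits counts of 10 to 14 most. The quantities followed were the members per list (210 in WT, 190 in DKO), the share in both lists (27.3%), the share with all 4 expected counts low (32.0%), the median enrichment (20.7), the groups (171), the share with a gene end at an anchor (48.8%), the median span (112.5 kb) and the median DKO/WT enrichment (0.9999). Of the alternative values for these, 62 moved beyond counting error or 1.5 times and 41 did not, and the DKO/WT enrichment did not move under any alternative run. The causes were not tested.

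With a donut limit of 1 there were 117 WT members, 39.0% in both lists, 47.9% with all 4 low, an enrichment of 30.3, 49 groups and a span of 65 kb. With a limit of 2 there were 575 WT and 413 DKO members, 17.9% in both lists, 12.96% with all 4 low, an enrichment of 8.61, 582 groups and a span of 205 kb. A false discovery rate under 0.01 in all 4 left 114 and 118 members, an enrichment of 27.9, 89 groups and a span of 75 kb. At least 15 contacts left 75 and 84 members, 35.9% in both lists, an enrichment of 33.5, 55 groups and a span of 65 kb. A span under 200 kb left 137 WT members, 34.3% in both lists, 40.9% with all 4 low, an enrichment of 28.1, 71 groups and a span of 70 kb. Without a span limit the enrichment was 17.2 and the span 185 kb.

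Requiring all 4 expected counts under 1.5 left 62 and 66 members, 34.95% in both lists, an enrichment of 38.3, 56 groups, 54.4% with a gene end and a span of 65 kb. Requiring it of their mean gave an enrichment of 26.2, 103 groups and a span of 75 kb. Matching within 1 bin put 57.8% in both lists and within 2 bins 63.7%. Counting as low only values under 1 gave 12.8% with all 4 low, and under 2 it was 63.0%. Enrichment was 7.89 over the highest and 13.8 over the mean of the 4 expected counts. A gene end lay inside an anchor bin at 24.8%, within 10 kb at 61.8%, and an anchor overlapped a gene body at 71.7%.

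Chosen after seeing the data, 1 pixel per group gave 26.1% with all 4 low, an enrichment of 11.2 and a span of 235 kb. The members with a bottom-left count of 0 were 110 and 119, with 42.2% in both lists and a span of 65 kb, and those above 0 were 100 and 71, with 12.4% and 260 kb. At named loci, 2 values moved, both at Tmem267 and both given above, and 40 did not.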
